A study of Mus musculus with 16 samples.

Results

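Clustered histone genes were taken as every non-control probe of the array whose gene name starts with Hist1h, Hist2h, Hist3h or Hist4h. The rule found 55 probes with 49 gene names among 55681 non-control probes with 34797 names, and it used no measured value. By histone type they comprised 6 probes for linker histone H1, 15 for H2A, 12 for H2B, 8 for H3 and 14 for H4. Of the names, 36 lay in the Hist1 cluster on chromosome 13, 9 in Hist2 on chromosome 3, 3 in Hist3 on chromosome 11 and 1, Hist4h4, on chromosome 6.

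The samples were uteri of mice ovariectomized at 4 weeks of age, kept for a further 2 to 3 weeks, and then injected under the skin with castor oil that held hormone or none. Groups of 4 arrays each were wild-type mice (WT) given vehicle (PLB, 0 µg/kg) or 17β-estradiol (E2, 8 µg/kg), and mice with the altered estrogen receptor named Arg260-ERα given either, all collected after 6 hours. The labels give the receptor's name but neither the exchanged residue nor the breeding controls, and since they do not say that replicates are separate animals, p-values measure the spread between these samples. The removal of the ovaries, and so the lack of ovarian estrogen before the injection, is shared by all 4 groups.

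Histones H2A, H2B, H3 and H4 form the core around which DNA is wound, and H1 binds the linker between cores. Most clustered histone genes are transcribed during DNA replication, and their mRNAs end in a stem-loop instead of a poly(A) tail; the stem-loop binding protein Slbp guides that processing. Some of these genes also yield longer, polyadenylated transcripts, known mostly from resting and differentiating cells. Estradiol is known to bring resting epithelial cells of the uterus into DNA synthesis, which follows the first transcriptional response by hours.

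Values are log2 signals minus the 75th percentile of log2 signal on the same array, so that 0 is a bright probe and 1 unit is a doubling. Of all spots, 61.6% to 70.6% per array were well above background, and no non-control spot was saturated. All 21 marker genes of epithelium, stroma and smooth muscle were well above background on all 16 arrays. Averaged markers of several cell types moved with treatment too. Adipocyte markers (5 genes, 5 lower in WT and 2 in Arg260) averaged -0.70 to 1.44 on WT PLB arrays and -5.92 to -1.64 on WT E2 arrays, and -1.03 to 0.53 against -3.70 to -0.62 in Arg260. Stromal markers (7 genes, 4 lower in each genotype) averaged 4.04 to 4.83 against 3.21 to 4.23 in WT and 4.23 to 4.99 against 3.40 to 3.95 in Arg260. Smooth muscle markers (5 genes, 3 higher in WT and 1 in Arg260) averaged 4.68 to 5.22 against 5.34 to 5.91, and 4.54 to 5.75 against 5.37 to 5.70. Granulocyte markers (5 genes, 2 higher in each genotype) averaged -1.64 to -0.59 against -1.15 to 0.92, and -2.13 to -1.40 against -0.96 to -0.31. Their part in the results on histone probes was not tested, and in whole uterus fewer cells of a type cannot be told apart from less RNA per cell. Probes well above background on at least 4 of 16 arrays were tested with limma, which left 52 of the 55. The 3 probes not tested, for Hist1h1d, the pseudogene Hist3h2bb-ps and 1 of 2 for Hist4h4, were well above background on 0 arrays. A set of 40 members was well above background on all 16.

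E2 lowered many of the clustered histone probes within 6 hours, in both genotypes. In WT, 27 of 52 were lower and 3 higher at an adjusted p below 0.05, whereas 31.5% of all 38683 tested probes were lower and 31.3% higher. In Arg260, 30 of 52 were lower and 3 higher, beside 30.7% and 32.4% of all tested probes. The median log2 change of the members was -0.42 in WT and -0.53 in Arg260, and the median over all tested probes was -0.03 and 0.01. A fall of at least 2-fold was called for 15 members in WT and 15 in Arg260, beside 15.4% and 15% of all tested probes. With slides as blocks (each slide held 2 arrays of every group) the counts were the same, 27 and 30 lower; within slide 1 they were 29 and 30, and within slide 2 they were 18 and 16, with 2 arrays per group.

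All 4 E2 arrays lay below all 4 PLB arrays for 24 members in WT and 35 in Arg260, beside 28.8% and 27.6% of all tested probes. They lay above them for 2 members in WT and 3 in Arg260, beside 29.3% and 30.1%. In both genotypes 25 members were lower. How many of all tested probes were lower in both was not counted. Pearson's r between the WT and Arg260 changes was 0.947 over the members and 0.950 over all tested probes. The 3 members that were higher, Hist2h2ab, Hist1h3a and Hist1h3d, were shared. Of the 3, Hist2h2ab and Hist1h3a were well above background on E2 arrays alone. They passed the filter only through the groups where they were high. Hist1h3d lost its call in both genotypes with quantile normalization. H2B stood at one end, with 9 of 11 tested probes lower in WT and 10 of 11 in Arg260 at a median change of -2.02 and -1.84. H4 probes were lower in 10 and 8 of 13 cases, but by little, with medians of -0.33 and -0.30.

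**Figure D1:**
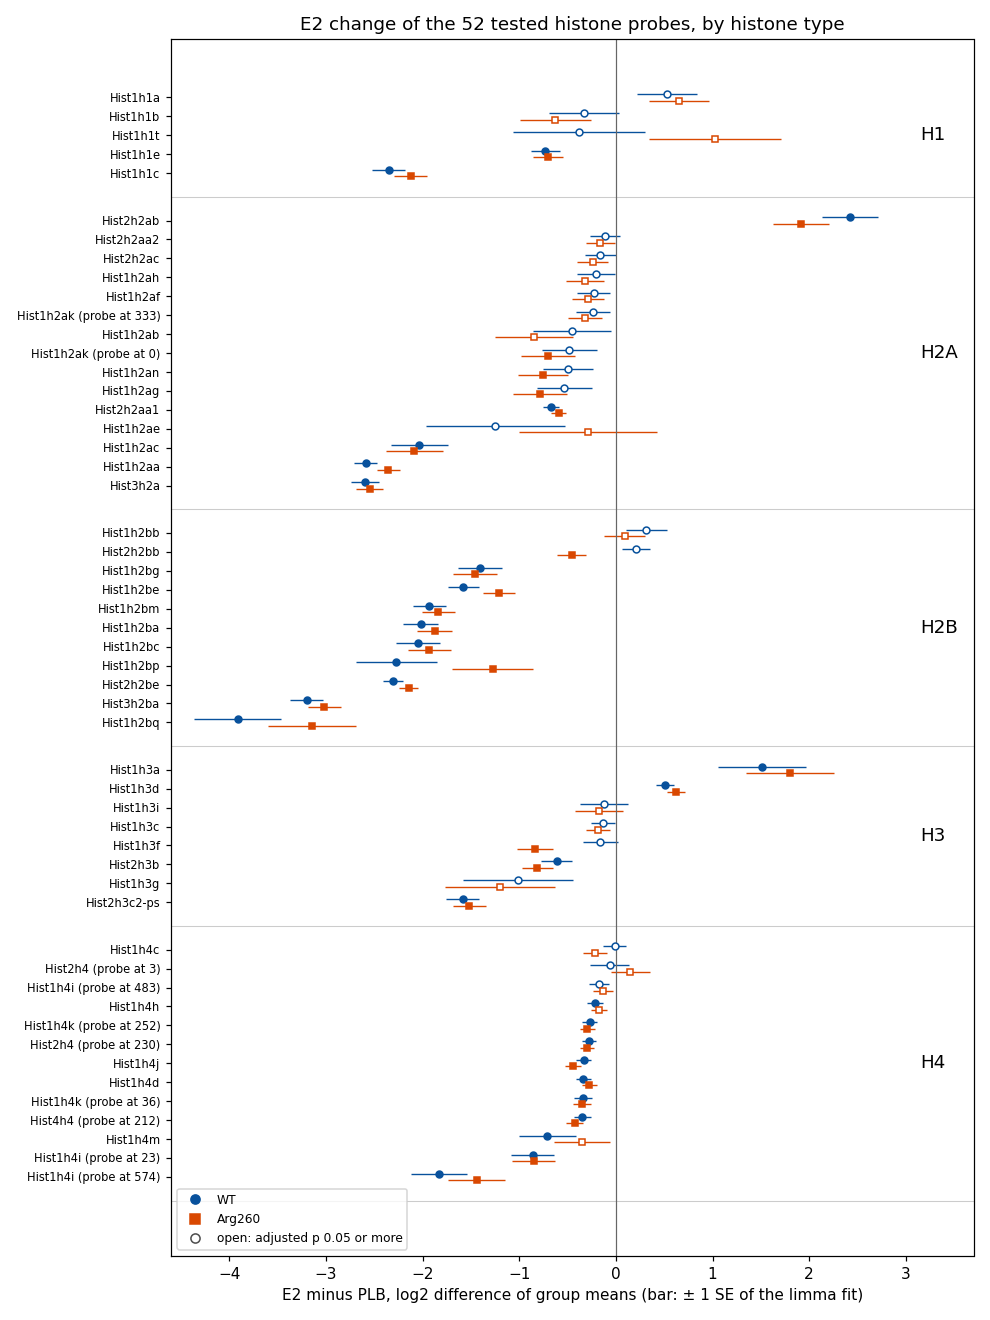
Log2 difference between E2 and PLB group means (x axis, bar ± 1 SE of the limma fit, 4 arrays per group) of the 52 tested probes, grouped by histone type, in WT (circles) and Arg260 (squares); open symbols have an adjusted p of 0.05 or more. H2B probes reach -3.91, the H4 probes lie mostly near -0.3, and Hist2h2ab stands highest at 2.42 in WT.

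H1 histones bind linker DNA and compact chromatin. Hist1h1c, a linker variant also made outside S phase, had WT PLB values of 2.57, 2.65, 2.68 and 3.06 and WT E2 values of 0.61, 0.38, 0.27 and 0.30. Its Arg260 values were 2.89, 2.40, 2.75 and 2.00 with PLB and 0.50, 0.36, 0.47 and 0.22 with E2. The treatments did not overlap in either genotype, and Hist1h1c fell by 2.35 ± 0.17 (SE, n = 4 per group) on the log2 scale in WT and by 2.12 ± 0.17 in Arg260 (limma adjusted p = 2.0e-08 and 5.5e-08). Hist1h1e fell by 0.73 and 0.70, with no overlap between treatments.

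The other linker genes gave no call in the main fit of all 16 arrays. Hist1h1a differed by 0.53 ± 0.31 in WT and 0.65 ± 0.31 in Arg260 (limma adjusted p = 0.15 and 0.079). In Arg260 it was called higher in 6 of 30 other settings, among them quantile normalization and median centring (limma adjusted p = 0.039 and 0.040). In WT it was called higher in 1, the authors' deposited series table (limma adjusted p = 0.032). Hist1h1b, a linker histone of dividing cells, differed by -0.33 ± 0.36 and -0.63 ± 0.36, and its Arg260 treatments did not overlap. Without WT E2 replicate 3 it was called in both genotypes, at -0.80 and -0.63 (limma adjusted p = 0.0062 and 0.016), and in Arg260 also when its 2 groups were fitted alone (limma adjusted p = 0.017). Hist1h1t, the linker histone of the testis, was well above background on 10 of 16 arrays, with differences of -0.39 ± 0.68 and 1.03 ± 0.68; its Arg260 E2 arrays read -5.67, -5.69, -6.64 and -2.23, so that replicate 4 alone stood high.

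H2B pairs with H2A in the core. Hist3h2ba, on chr11:58762964-58763023 of mm9 (plus strand), read 1.24, 1.54, 1.80 and 2.07 on the WT PLB arrays and -1.31, -1.93, -1.44 and -1.46 on the WT E2 arrays. In Arg260 it read 1.65, 1.65, 1.58 and 1.27 with PLB and -1.52, -1.46, -1.33 and -1.60 with E2. Every E2 array was thus well below every PLB array, and the fall was 3.20 ± 0.17 in WT and 3.02 ± 0.17 in Arg260, a 9.18-fold and 8.09-fold decrease (limma adjusted p = 9.9e-10 and 1.7e-09). Within slides 1 and 2 the WT change was -3.01 and -3.39.

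Hist1h2bq had the lowest changes of all members, -3.91 ± 0.45 in WT and -3.15 ± 0.45 in Arg260 (limma adjusted p = 2.8e-06 and 2.5e-05). Its WT PLB arrays read -2.40, -2.13, -2.24 and -2.04 and its WT E2 arrays -6.91, -6.57, -4.67 and -6.32. E2 signals were near background, well above it on 1 of 4 WT and 2 of 4 Arg260 arrays, so the size is uncertain; with normexp background correction the changes were -1.71 and -1.33. The probe's accessions belong to 2 genes in RefSeq.

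Hist2h2be, known as a replication-independent H2B gene, read 0.17, 0.08, 0.16 and 0.38 with PLB and -2.26, -2.22, -1.92 and -2.03 with E2 in WT. Its fall of 2.31 ± 0.10 in WT and 2.14 ± 0.10 in Arg260 had the smallest adjusted p of the members, 1.9e-10 and 3.4e-10 by limma. Hist1h2bc fell by 2.05 and 1.93, Hist1h2ba, a testis type of H2B, by 2.02 and 1.88, and Hist1h2bm by 1.93 and 1.84. The accessions of the Hist1h2bm probe belong to 4 H2B genes. On the WT PLB arrays Hist1h2ba read 2.69, 2.73, 2.49 and 3.21, and Hist1h2bm read 2.86, 2.91, 2.64 and 3.26. Whether these probes read the same transcripts was not tested. Hist1h2bp was well above background on 0 of 4 WT E2 arrays. With the background subtraction of the main fit this puts it at least 2.70-fold lower there. The bound compares the mean of the PLB arrays with 1 value per E2 array. That value is the higher of the probe's own signal and the lowest signal called well above background. The bound does not hold for other background treatments: with normexp and quantile normalization the WT log2 change was -0.54. In Arg260 Hist1h2bp was lower by 1.27 ± 0.42 (limma adjusted p = 0.016). That call was lost without any 1 of Arg260 PLB replicates 2 and 3 and Arg260 E2 replicate 3 (limma adjusted p = 0.050 to 0.057).

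Hist1h2be and Hist1h2bg were lower by 1.58 and 1.40 in WT and by 1.21 and 1.46 in Arg260. Hist1h2bb (0.31 and 0.09) was called in neither genotype. Hist2h2bb was lower in Arg260 alone, -0.46 ± 0.15 against 0.21 ± 0.15 in WT, and is taken up with the genotype comparison.

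**Figure D2:**
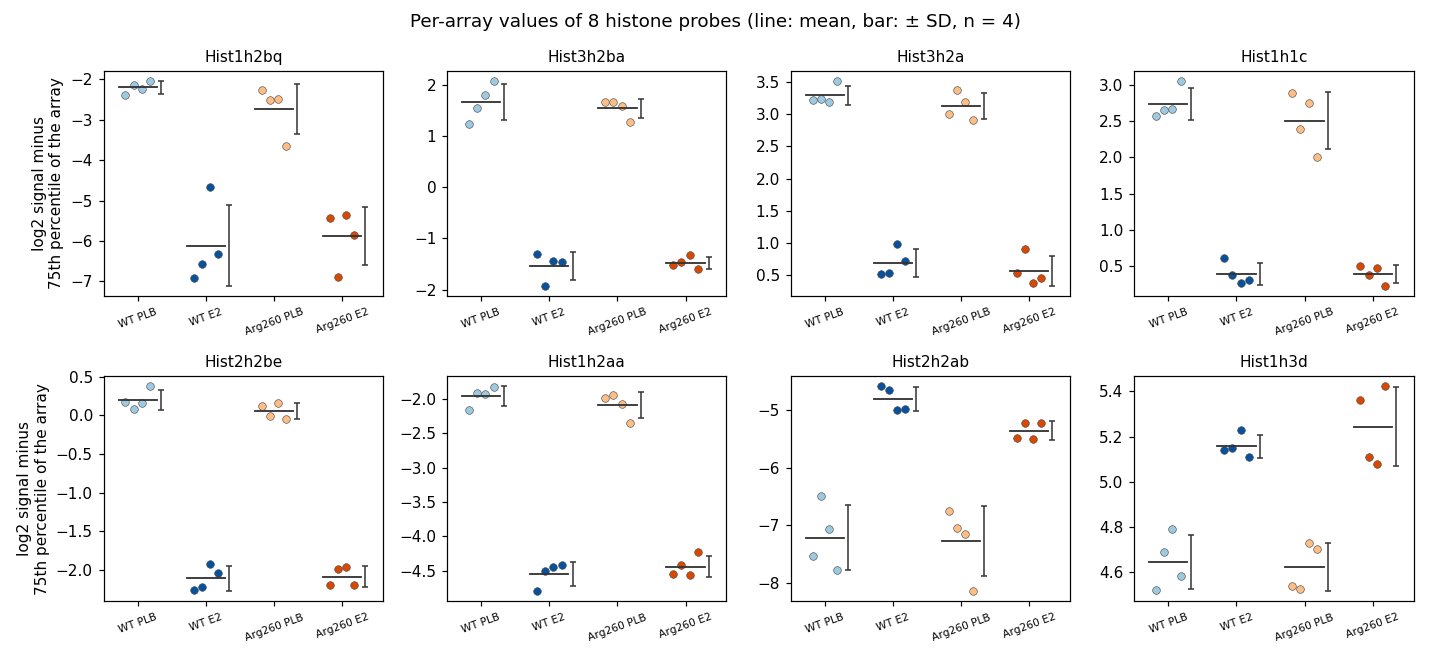
Log2 signal minus the array's 75th percentile (y axis) for 8 histone probes on the 16 arrays by group (x axis), with group means (lines) and ± SD (bars, n = 4). The upper row and Hist2h2be and Hist1h2aa fall with E2 in both genotypes, Hist1h1c from 2.57 or more to 0.61 or less in WT, while Hist2h2ab and Hist1h3d rise.

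H2A probes split 3 ways. Hist3h2a fell from WT PLB values of 3.22, 3.24, 3.19 and 3.51 to WT E2 values of 0.53, 0.54, 0.99 and 0.72, a change of -2.59 ± 0.14, and by 2.55 ± 0.14 in Arg260 (limma adjusted p = 1.2e-09 and 1.5e-09). Hist1h2aa, a testis and oocyte type, fell by 2.59 ± 0.12 and 2.35 ± 0.12 without overlap, from levels of -2.16 to -1.82 to levels of -4.80 to -4.42 in WT. Hist1h2ac fell by 2.03 and 2.08, though 1 of 4 Arg260 E2 arrays was well above background, and normexp correction reduced these falls to -0.77 and -0.63. Hist2h2aa1 fell by 0.67 and 0.59.

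Hist2h2ab went the other way. It read -7.53, -6.49, -7.07 and -7.78 on WT PLB arrays and -4.58, -4.65, -4.99 and -4.97 on WT E2 arrays. In Arg260 it read -6.74, -7.04, -7.15 and -8.15 with PLB and -5.49, -5.21, -5.50 and -5.21 with E2. No PLB array and all 8 E2 arrays were well above background, so the probe passed the filter only through the groups where it was high. With the background subtraction of the main fit it was at least 2.71-fold higher with E2 in WT. In Arg260 it was at least 1.96-fold higher (limma adjusted p = 3.9e-06 and 3.9e-05). These bounds do not hold for other background treatments: with normexp and quantile normalization the log2 changes were 0.60 and 0.40. The probe sits on chr3:96024171-96024230 of mm9, among neighbours that did not rise: Hist2h2ac at chr3:96024378-96024437 changed by -0.16 (not called) and Hist2h2be at chr3:96026893-96026952 fell.

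The other 10 H2A probes were called in WT in 0 cases. Of these, 6 end at the stop codon, and 4 of the 6 start at the same codon too, so that they can be compared letter by letter. The sequences below are those the scanner files give, in lower case, with capitals at the bases that differ from the Hist2h2aa2 probe; they are shown because probes this alike may read the same transcripts.
Hist2h2aa2: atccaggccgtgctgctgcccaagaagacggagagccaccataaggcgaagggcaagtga
Hist1h2af: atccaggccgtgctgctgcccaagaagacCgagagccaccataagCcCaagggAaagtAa
Hist1h2ak: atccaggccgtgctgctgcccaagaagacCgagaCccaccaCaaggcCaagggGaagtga
Hist1h2an: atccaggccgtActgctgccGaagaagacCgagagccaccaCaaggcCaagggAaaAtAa
The 3 differ from the first at 5, 5 and 8 of 60 bases, so signal at each may come from several genes. The other 2, laid over it without gaps, differ at 5 of 54 bases (Hist1h2ah) and 16 of 57 (Hist2h2ac). The Hist2h2ac probe lacks a codon near its end, so the overlay without gaps shifts its last letters and 16 overstates its differences. In WT these 4 probes changed by -0.11, -0.23, -0.24 and -0.49, all without a call, and in Arg260 by -0.16, -0.29, -0.32 and -0.75, of which Hist1h2an was called (limma adjusted p = 0.020).

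In WT the H2A values turned on 1 array. WT E2 replicate 3 was the highest of its group for 30 of the 40 members well above background on all 16 arrays, or 75%, beside 25.3% of 30259 such probes. Hist1h2ab read -0.64, -0.58, 1.80 and -0.36 on WT E2 arrays 1 to 4, after 0.32 to 0.88 with PLB. Hist1h2ag read 3.71, 3.98, 5.45 and 4.02, and Hist1h1b read -1.97, -1.26, 0.18 and -1.86. The other 3 arrays lay below every PLB array for Hist1h2ab and Hist1h2ag, and replicate 3 lay above them. Of 17 members that exceeded the mean of the other 3 arrays by over 0.5 there, 9 were H2A probes.

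Genes of dividing cells were high on that array too: Mki67, a marker of cycling cells, read 1.93 there and -1.25 to -1.06 on the others, and the mitotic kinase gene Cdk1 read -1.72 against -5.00 to -4.74. The mean of 23 genes of G2 and mitosis was -0.57 there and -2.79 to -2.71 on the others, and that of 34 genes of G1/S and replication was 1.103 against 0.21 to 0.26. Their part in the histone values was not tested. Without that array, 37 of 52 members were lower in WT and 3 higher (30.2% and 30.7% of all tested probes), and the H2A probes lower rose from 4 to 13 of 15. In Arg260, 7 of 15 H2A probes were lower: 4 without Arg260 PLB replicate 3, and 11 without WT E2 replicate 3, which lowers the pooled spread. Quantile normalization gave 11 lower in WT and 12 in Arg260, as did the authors' deposited series table, whose columns share 1 distribution of values. Median centring gave 4 lower in each genotype, and slide 2 alone gave 4 and 3.

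**Figure D3:**
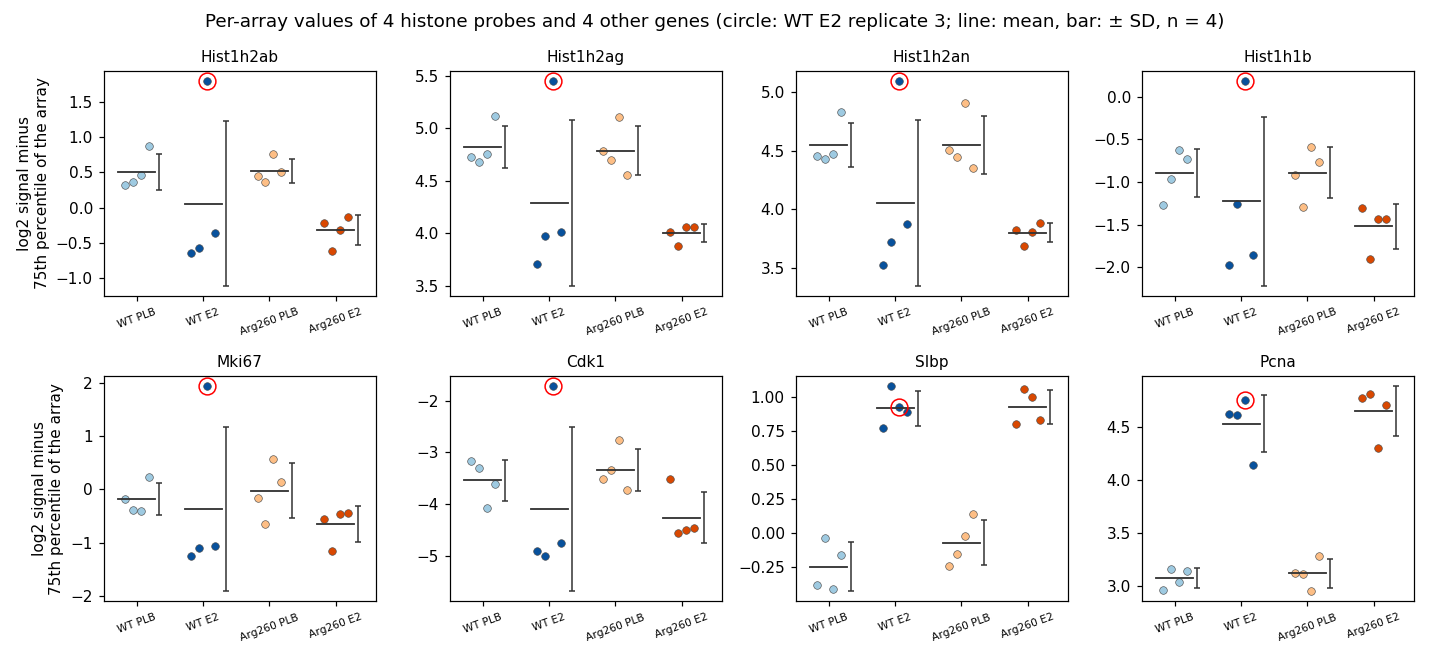
Log2 signal minus the array's 75th percentile (y axis) by group (x axis) for 4 histone probes and for Mki67, Cdk1, Slbp and Pcna; lines are means, bars ± SD (n = 4), and the circle marks WT E2 replicate 3. That array is highest of WT E2 for the 4 histone probes (1.80 for Hist1h2ab) and for Mki67 and Cdk1, and lies among the others for Slbp.

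H3 probes went in both directions. Hist1h3d read 4.52, 4.69, 4.79 and 4.58 with PLB and 5.14, 5.15, 5.23 and 5.11 with E2 in WT, without overlap. Its rise was 0.51 ± 0.09 in WT and 0.62 ± 0.09 in Arg260 (limma adjusted p = 0.00021 and 3.5e-05), but under quantile normalization by 0.07 and 0.10 with no call. Its accessions belong to 4 H3 genes. Hist1h3a was not well above background on any PLB array and was so on 3 WT and 2 Arg260 E2 arrays. It was called higher, and the WT groups overlapped. With the background subtraction of the main fit its bounds were at least 1.01-fold and 1.44-fold.

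Hist2h3c2-ps fell by 1.59 and 1.52, and Hist2h3b by 0.61 and 0.81. Hist1h3f was lower in Arg260 alone, by 0.84 ± 0.18, against -0.16 ± 0.18 in WT. Hist1h3c, Hist1h3g and Hist1h3i were called in neither genotype.

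H4 probes ranged in WT from -1.83 to -0.01 and in Arg260 from -1.44 to 0.15, and 3 and 5 of 13 were not called. A group of 6 fell by like amounts: Hist1h4d, Hist1h4j, both Hist1h4k probes, the Hist2h4 probe in mid-gene and Hist4h4. They changed by -0.35 to -0.27 in WT and -0.44 to -0.27 in Arg260, all called, with no overlap between treatments. The probes for Hist1h4d, Hist1h4j and Hist1h4k are each annotated to several H4 genes, some of them shared. The Hist1h4d probe and 1 Hist1h4k probe match at 48 of 52 overlaid bases, so these falls are not independent. Centring arrays on their median in place of the 75th percentile moved the all-probe median change in WT (-0.03) to 0.12 and that in Arg260 (0.01) to 0.14, and left 3 of 13 H4 probes lower in WT and 5 in Arg260. Within slide 2, 2 and 1 were lower. The 3 probes named for Hist1h4i differed. In WT the one starting at base 23 of the transcript changed by -0.86, that at base 483 by -0.17 without a call, and that at base 574 by -1.83. Those at 483 and 574 start past the end of the 403-base gene model. Whether all 3 read the same transcripts was not tested.

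The size of the fall went with where a probe lies, a split chosen after the values had been seen and given as a description without a test. Of the 52, 38 probes lay inside a RefSeq gene model of at most 1000 bases, 5 in a longer gene model and 9 extended past the end of the model. All 5 in longer models (Hist1h2bc, Hist1h2be, Hist1h2bp, Hist1h2bq and Hist2h2be) and 7 of 9 past the end (Hist1h1c, Hist1h2ac, Hist3h2a, Hist1h2bg, Hist3h2ba, Hist2h3c2-ps and 1 probe of Hist1h4i) were lower in both genotypes. Medians were -2.27 and -1.93 in the longer models and -1.83 and -1.52 past the end. All 5 probes in longer models were for H2B, so place and histone type overlap. A link of the fall with place apart from type was not tested. Inside short models 15 of 38 were lower in WT and 18 in Arg260, beside 31.5% and 30.7% of all tested probes. Medians there were -0.30 and -0.33. In this class 3 were at least 2-fold lower, Hist1h2aa, Hist1h2ba and Hist1h2bm, beside 15.4% and 15% of all tested probes. Without WT E2 replicate 3 this class had 25 of 38 lower in WT, at a median of -0.36, beside 30.2% of all tested probes. The other classes kept counts of 5 and 7. Across the 52 probes, which share the 16 arrays, Spearman's rho between the probe's first base and its change was -0.49 in WT and -0.44 in Arg260.

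**Figure D4:**
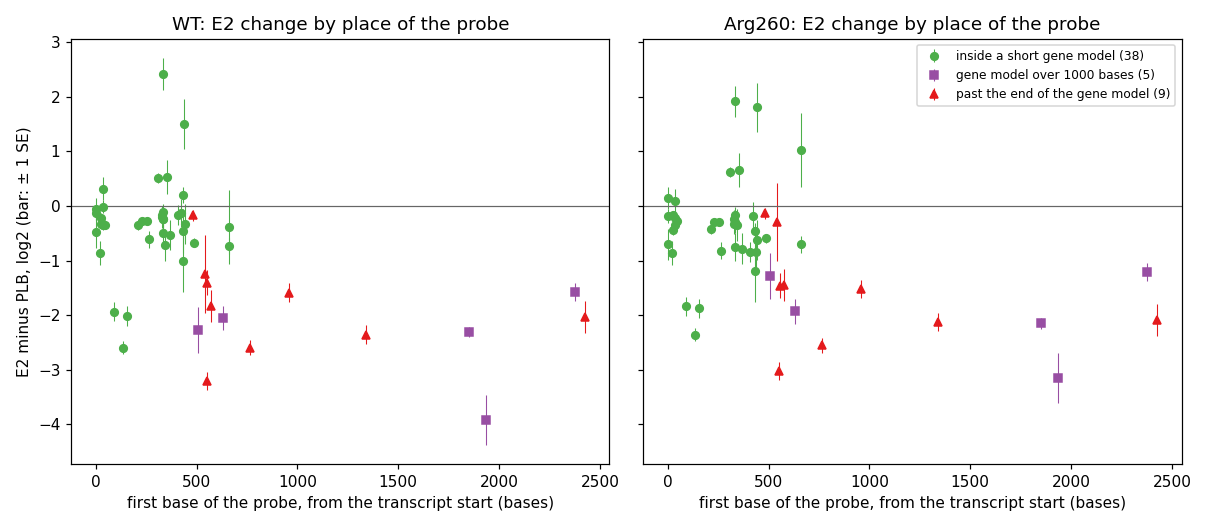
Log2 difference between E2 and PLB means (y axis, bar ± 1 SE) against the first base of the probe counted from the transcript start (x axis), in WT (left) and Arg260 (right), for 38 probes inside short gene models, 5 in models over 1000 bases and 9 past the end of the model. Squares and triangles lie below 0 throughout, with medians of -2.27 and -1.83 in WT.

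Letters of the probes hold motifs known from both kinds of transcript end. The stretches below, at most 30 bases each, hold the stem-loop letters or the letters of a poly(A) signal hexamer in capitals; they are shown because the ends of histone transcripts differ in this way, and which transcripts were labelled was not measured.
Hist2h2aa1 (stem-loop): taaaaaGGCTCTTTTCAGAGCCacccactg
Hist2h2bb (stem-loop): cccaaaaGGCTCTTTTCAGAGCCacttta
Hist1h3a (stem-loop): aaccaaaGGCTCTTTTCAGAGCCaca
Hist3h2ba (hexamer AATAAA): cataatggtattAATAAAtttggttca
Hist1h2be (hexamer ATTAAA): gtactgttcattATTAAAgcattcctgatt
At least part of the stem-loop was found in 9 probes, of which 2 were lower and 1 higher in each genotype, with median changes of -0.45 and -0.35. Of all tested probes, 31.5% were lower and 31.3% higher in WT, and 30.7% and 32.4% in Arg260. AATAAA or ATTAAA letters were found in 4 probes, of which 2 were lower in WT and 3 in Arg260. Such letters alone do not show where a transcript ends, and in the Hist1h2ag probe they overlap the stop codon of the H2A reading frame. Hist3h2ba and Hist1h2be fell by 3.20 and 1.58 in WT. The other 2 were not called in WT: Hist1h2ag (-0.53, and -0.78 with a call in Arg260) and the Hist1h4i probe at base 483 (-0.17, and -0.13 without a call in Arg260).

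Promoter windows from RefSeq (GRCm38.p6, 250 bases before to 50 after the start) were at hand for 43 member genes, as 44 windows. TATAAA, on either strand, was in 59.1% of them and in 13.6% of all 32851 windows. CCAAT was in 86.4% against 37.4%, and in 2 of 8 H4 windows. The octamer ATTTGCAT, bound by Oct factors and known from H2B promoters, was in 29.5% against 1.74%, and by type in 7 of 14 H2A and 6 of 10 H2B windows. The full palindrome of the estrogen response element, with any 3 bases between its arms, was in 0 of 44 windows and in 0.07% of all. In genes with a probe at least 2-fold lower in both genotypes the octamer was in 7 of 14 windows, and in the other members in 6 of 30. It was in 0 of 6 H1, 0 of 6 H3 and 0 of 8 H4 windows. These sets also differ in histone type, and a link with the fall apart from type was not tested.

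The 130 bases before the start of 3 members that moved far, chosen after their values were seen, are printed with the letters of those first 3 motifs (either strand) in capitals: Hist3h2ba at chr11:58948781-58948910 (plus), Hist2h2ab at chr3:96219755-96219884 (plus) and Hist1h2ac at chr13:23683960-23684089 (minus).
Hist3h2ba: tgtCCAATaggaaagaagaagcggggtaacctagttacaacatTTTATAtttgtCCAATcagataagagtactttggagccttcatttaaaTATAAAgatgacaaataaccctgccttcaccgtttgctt
Hist2h2ab: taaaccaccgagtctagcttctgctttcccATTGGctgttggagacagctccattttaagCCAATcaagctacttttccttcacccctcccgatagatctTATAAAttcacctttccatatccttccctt
Hist1h2ac: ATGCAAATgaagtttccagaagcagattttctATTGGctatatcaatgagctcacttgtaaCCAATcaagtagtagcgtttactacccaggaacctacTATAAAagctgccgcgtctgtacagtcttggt
All 3 carry TATAAA and CCAAT letters, whether the probe fell (Hist3h2ba and Hist1h2ac) or rose (Hist2h2ab).

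No histone member was called for a difference between the genotypes in its E2 response. The interaction was called for 0 of 38683 probes (0% of all; 1421 at an unadjusted p below 0.05, 2 of them members). The differences, Arg260 minus WT, ran from -0.68 to 1.42 over the 52 members with a median of 0.00. For Hist3h2ba the 95% interval of the difference was -0.33 to 0.70, for Hist1h2bq -0.61 to 2.14 and for Hist2h2ab -1.38 to 0.38. The smallest p by limma were those of Hist2h2bb (-0.66 ± 0.21), Hist1h3f (-0.68 ± 0.26) and Hist1h2bp (0.996 ± 0.593), each with an adjusted p of 0.9998; unadjusted limma p were 0.0064, 0.021 and 0.12.

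Hist2h2bb read -2.04, -2.09, -1.85 and -2.06 on WT E2 arrays and -2.40, -2.69, -2.43 and -2.21 on Arg260 E2 arrays, which did not overlap, while its PLB arrays did. Between genotypes without hormone 0 of 38683 probes were called (0% of all; 976 at an unadjusted p below 0.05, 0 of them members). Hist1h2ac (-0.60 ± 0.30), Hist1h2bp (-0.69 ± 0.42) and Hist2h2bb (0.24 ± 0.15) had the smallest p. After E2, 3 probes or 0.00776% were called, none of them a histone probe; Hist2h2bb (-0.42 ± 0.15), Hist1h3f (-0.50 ± 0.18) and Hist1h2ac (-0.65 ± 0.30) were the members of smallest p, with limma adjusted p of 0.61, 0.62 and 0.69.

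Among histone genes outside the clusters, whose mRNAs are mostly polyadenylated, 6 of 13 tested were higher and 2 lower in each genotype, beside 31.3% and 32.4% of all probes higher. Their median changes were 0.31 and 0.32. H2afx, the variant that marks DNA breaks, rose by 1.57 and 1.56 (WT, then Arg260), and Cenpa, the centromeric H3, fell by 1.58 and 1.90. H2afz rose by 0.71 and 0.88 while its close relative H2afv fell by 0.98 and 0.99. H3f3b, for the replacement histone H3.3, read -8.11 on WT PLB replicate 2 and 5.28 to 5.71 on the other WT PLB arrays; its differences of 3.90 ± 2.22 in WT and 0.55 ± 2.22 in Arg260 were not called.

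Genes that act in the transcription, processing and decay of histone mRNA were mostly higher with E2: 19 of 25 tested were higher and 3 lower in WT, 20 and 3 in Arg260. Of all tested probes, 31.3% were higher and 31.5% lower in WT, and 32.4% and 30.7% in Arg260. Slbp read -0.38, -0.03, -0.41 and -0.16 with PLB and 0.77, 1.08, 0.93 and 0.89 with E2 in WT, and rose by 1.16 ± 0.11 there and 0.99 ± 0.11 in Arg260. Ncbp1, of the cap-binding complex, rose by 2.26 and 2.17, Cpsf2, of the 3′ cleavage complex, by 1.75 and 1.76, and Upf1, which takes part in histone mRNA decay, by 1.55 and 1.62. Pou2f1, encoding Oct-1, fell by 0.82 and 0.85.

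Histone chaperones and importers were higher in 17 of 27 cases in each genotype and lower in 5 and 4. Beside these, 31.3% and 32.4% of all tested probes were higher and 31.5% and 30.7% lower. Set rose by 1.66 and 1.66, Ncl by 1.65 and 1.74, and Nasp, a carrier of H3, H4 and H1, by 1.59 and 1.53. Of 34 tested genes of G1/S and replication, 12 were higher in each genotype (beside 31.3% and 32.4% of all probes) and 6 and 7 lower; Pcna, the sliding clamp, rose by 1.46 and 1.53, and Rrm2 by 1.54 and 1.28. Without WT E2 replicate 3, 11 were higher and 10 lower in WT, and the median change moved from 0.20 to -0.08. With quantile normalization the counts became 9 and 7 higher and 8 and 10 lower.

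Of 23 tested genes of G2 and mitosis, 4 were higher in each genotype and 2 and 3 lower. Both counts were below the shares of all tested probes, 31.3% and 32.4% higher and 31.5% and 30.7% lower. Tpx2 rose by 2.34 and 2.39, Birc5 by 2.33 and 1.85, and Bub1b fell by 1.96 and 2.09. Mki67 (-0.18 ± 0.55 and -0.63 ± 0.55) and Top2a (0.63 ± 0.53 and 0.32 ± 0.53) were not called. Without WT E2 replicate 3, 4 were higher and 11 lower in WT, beside 30.7% and 30.2% of all tested probes.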

How the data were processed

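RNA of 16 uterus samples was labelled with Cy3 and hybridized to 60-base probes. Per the file headers, Agilent Feature Extraction 10.10.1.1 subtracted background and detrended the intensity values, which the authors deposited per array; the deposited series table holds log2 values whose columns share 1 distribution; the submitters' processing notes name limma, with background correction and filter not given in the sources used here. Here log2 was taken, each array's 75th percentile subtracted, and spots of 1 probe averaged without outlier-flagged ones. limma 3.58.1 (R 4.3.3) fitted 4 group means to 38683 probes; tests were two-sided, adjusted over all probes by Benjamini-Hochberg. A listed gene was read at its brightest tested probe. Probe positions are mm9, per the file headers; names were updated through RefSeq, 52 by accession and 3 by synonym. The code was tested on simulated data. Members, lists and the rule for named probes (per genotype the 8 largest called falls and rises with all 4 arrays of the higher group well above background; linker and germ-line types; of each list the 3 called genes of largest WT change; the 3 smallest p of genotype comparisons; Slbp, Pcna, Mki67 and Top2a) were chosen with earlier results of these data known. H2afz, H3f3b, Pou2f1 and probes named beside 1 array, gene models, small changes or repeated probes fall outside it and were chosen after their values were seen. Alternatives changed normalization, filter, slide, replicate block, prior, probe choice and single arrays. The number of arrays limits precision. The values of 1 listed gene that the rule names are not reported here.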

Additional observations from a re-analysis of the deposited data

Results flagged for a closer look

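In 14 of 208 groups of 4 arrays, over the 52 tested probes, the highest or lowest array stood apart: its gap to the nearest of the others, as a share of the group's range, exceeded Dixon's 95% critical value, which chance gives in about 1 of 20 groups. WT PLB held 8 of the 14, of which 6 were H2A probes on which replicate 4 was highest: Hist1h2ag at 5.12 (others 4.68 to 4.75), Hist1h2ah at 5.75, Hist1h2an at 4.83, Hist2h2aa2 at 5.44, Hist2h2ac at 5.38 and Hist3h2a at 3.51. Several of these probes share most of their letters, so they are not independent.

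The other 2 in WT PLB were Hist1h2ac at -3.50 on replicate 3 and Hist1h4d at 3.36 on replicate 1. In WT E2 they were Hist1h2ab at 1.80 on replicate 3 (others -0.64 to -0.36) and a Hist1h4i probe at -2.38 on replicate 1. In Arg260 they were Hist1h3a at -7.02 on PLB replicate 3, Hist1h4m at -5.86 on PLB replicate 4, Hist1h2ba at 0.61 on E2 replicate 3 and Hist2h4 at -5.82 on E2 replicate 1. The cause was not tested.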

How the results depend on the processing

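Deviations of same-numbered arrays correlated at -0.076 to 0.22 between groups (median 0.038), and those of other arrays at -0.25 to 0.26 (median -0.014). The ranges overlap, which cannot exclude a pairing of samples by replicate number. With the replicate block, 26 members were lower in WT and 30 in Arg260 and 3 and 4 higher, and none of these counts moved by over 1.5 times. The members' median change in WT was -0.64 with quantile normalization, -0.27 with median centring, -0.59 in the authors' deposited series table, -0.56 within slide 1 and -0.69 without WT E2 replicate 3. In Arg260 it was -0.66 with normexp and quantile normalization, -0.77 with quantile normalization, -0.72 in the authors' deposited series table and -0.70 within slide 2, where 16 members were lower. Leaving out 1 array at a time gave medians of -0.69 to -0.33 in WT and -0.59 to -0.50 in Arg260, with 25 to 37 and 26 to 36 members lower. Of 960 alternatives for 16 named probes, 936 kept direction and side of the threshold, 13 lost the call, 10 gained one and 1 turned, the uncalled Hist1h1t in WT at 0.13 within slide 2. No member was called for a genotype difference in any of the settings run. Near background, normexp correction shrank changes: Hist2h2ab to 0.60 and 0.40, Hist1h2bp to -0.54 and -0.29.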
